A study of Mus musculus with 70 samples.

Results

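The genes described here are 35 genes of glycolysis and of the response to low oxygen, chosen by name from a table of estimated counts that holds 35197 genes. All 35 passed the filter on low counts, which kept 16147 genes. Counts came from 70 RNA sequencing libraries of 8 mouse cancer cell lines that were left without cytokine (NS) or exposed for 48 h to interferon beta (IFNb, 1000 activity units per mL) or interferon gamma (IFNg, 100 ng per mL). B16.1 and YUMMER1.7 are labelled melanoma, CT26.2 and MC38.7 colorectal cancer, KPC.2 and Panc02.3 pancreatic cancer, LLC lung cancer and Renca renal cancer. CT26.2 and Renca derive from BALB/c mice and the other 6 lines from C57BL/6 mice. Of the 24 groups of line and treatment, 22 had 3 libraries and the other 2, LLC given IFNg and Renca without cytokine, had 2 each. Since nothing in the labels marks replicates as separate cultures, the p-values reflect only how far these libraries differ, and that spread could be technical.

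Glycolysis splits glucose into pyruvate and yields ATP without oxygen, and many tumour cells run it at a high rate and export the lactate. The transcription factor HIF, whose oxygen-labile subunit is made by Hif1a, binds DNA at a short core motif and raises transporters, glycolytic enzymes and genes of angiogenesis, mitophagy and pH control when oxygen is scarce. The prolyl hydroxylases made by Egln1 and Egln3 mark that subunit for destruction when oxygen is present, and both genes are themselves HIF targets. Interferons act through receptors on the cell surface and are best known for raising antiviral and antigen presentation genes.

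Levels are given as CPM, a count relative to the TMM-scaled total of its library, and a change is a log2 ratio with its standard error (SE). A gene is said to have risen or fallen where the edgeR quasi-likelihood F test gave an adjusted p under 0.05 (Benjamini-Hochberg over all 16147 genes). A lower CPM is a smaller share of a library's RNA, and fewer expressing cells and less RNA per cell cannot be told apart. Library totals ran from 668355 to 28550816 counts with a median of 8644887. The interferon-induced gene Irf1 was above every NS library in all libraries with IFNg of all 8 lines, and in those with IFNb of 7 lines. In YUMMER1.7 with IFNb this did not hold, and Irf1 stood at 0.956 of its NS level. Of the marker lists, 7 of 7 melanocyte genes passed 10 CPM in unstimulated B16.1 but only 1 of 7 in YUMMER1.7. None of 5 intestinal genes passed that level in CT26.2 or MC38.7, 1 of 5 lung genes did in LLC, 3 and 2 of 5 pancreatic genes did in KPC.2 and Panc02.3, and 5 of 5 renal genes did in Renca. The share of counts from mitochondrially encoded genes moved with treatment in some lines, from 1.75 to 2.08% in unstimulated B16.1 to 2.82 to 2.97% with IFNg, and from 3.46 to 4.89% in unstimulated Renca to 2.35 to 2.72% with IFNg. In B16.1 the summed level of the 7 melanocyte genes went from 20000 to 20400 CPM without cytokine to 12600 to 13000 CPM with IFNb and 9120 to 9590 CPM with IFNg. In Panc02.3 the summed level of 5 fibroblast genes, of which only Col1a1 passed 10 CPM, went from 298 to 407 CPM down to 12.2 to 14 CPM with IFNg, and in KPC.2 that of 6 epithelial genes went from 5740 to 6150 CPM up to 9210 to 9720 CPM with IFNg, in 2 keratins. In LLC the epithelial sum, with Epcam and Cldn4 at 0, went from 293 to 321 CPM down to 126 to 128 CPM with IFNb, and the mitochondrial share from 1.95 to 2.13% to 1.42 to 1.45%. In Renca with IFNg the epithelial sum went from 738 to 775 CPM up to 1270 to 1520 CPM, and in KPC.2 with IFNg that of 5 pancreatic genes, with Ptf1a at 0, went from 957 to 1090 CPM down to 543 to 578 CPM. The part of these shifts in the results below was not tested.

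The start regions of 4 members with a large fall or rise on the mean over lines are shown because HIF binds the core letters ACGTG and GCGTG. Capitals mark those letters on either strand, with some matches overlapping, in the 250 bases before the start, from RefSeq on GRCm38.p6, 5′ to 3′ along the gene.
Bnip3 (chr7:138909507-138909756, minus strand): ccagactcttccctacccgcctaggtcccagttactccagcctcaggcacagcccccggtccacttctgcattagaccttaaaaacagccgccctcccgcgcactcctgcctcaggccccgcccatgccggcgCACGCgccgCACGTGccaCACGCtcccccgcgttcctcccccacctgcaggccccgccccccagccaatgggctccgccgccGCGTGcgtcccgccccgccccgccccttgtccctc
Ankrd37 (chr8:45999851-46000100, minus strand): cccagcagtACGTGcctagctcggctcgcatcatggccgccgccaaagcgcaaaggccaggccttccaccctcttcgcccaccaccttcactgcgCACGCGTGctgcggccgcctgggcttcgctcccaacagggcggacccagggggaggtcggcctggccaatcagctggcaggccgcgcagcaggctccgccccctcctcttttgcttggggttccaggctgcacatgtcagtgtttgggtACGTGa
Pdk1 (chr2:71872974-71873223, plus strand): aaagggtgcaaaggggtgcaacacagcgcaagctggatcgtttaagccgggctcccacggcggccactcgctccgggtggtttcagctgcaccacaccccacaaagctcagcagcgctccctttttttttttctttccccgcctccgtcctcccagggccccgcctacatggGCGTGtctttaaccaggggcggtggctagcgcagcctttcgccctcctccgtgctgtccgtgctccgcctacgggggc
Hk2 (chr6:82774455-82774704, minus strand): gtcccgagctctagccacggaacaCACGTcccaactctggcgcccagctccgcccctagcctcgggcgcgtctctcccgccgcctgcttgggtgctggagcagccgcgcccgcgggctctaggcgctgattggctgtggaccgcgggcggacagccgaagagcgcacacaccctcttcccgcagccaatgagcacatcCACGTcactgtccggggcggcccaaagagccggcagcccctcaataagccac
Of the 32 members present in the RefSeq table, 21 (65.6%) held ACGTG in such a window before at least 1 start, against 18.5% of 27025 genes. Those genes are all in that table, whether or not they passed the filter on low counts, which all members passed. GCGTG was also found in 21 of 32 members, against 30.9% of genes. Either motif was present in 29 members (90.6%) and in 41.5% of genes. Taking only the first listed start of each gene, the shares for either motif were 78.1% and 38.6%. Bnip3, whose product sits on mitochondria and promotes their removal, had 5 matches, and Ankrd37, an ankyrin repeat gene known as a HIF target, had 4. Pdk1 has 2 listed starts. The window before the first is shown, and the window before the second held neither motif. A match describes letters only, and several members were listed because they are known HIF targets.

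Without cytokine the lines differed at all 35 members, but 96.5% of all genes tested differed too. Renca and Panc02.3 held both top mean levels for 7 of the 10 HIF targets outside glycolysis. Ero1l, which makes the oxidase that keeps protein disulphide isomerase active, stood at 6090 and 5890 CPM in the 2 Renca libraries and at 68.7, 101 and 72 CPM in KPC.2, a 74.3-fold difference of the means. Ndrg1, a stress-responsive gene, ranged from 4008 CPM in Renca to 63.97 CPM in YUMMER1.7. Vegfa, the angiogenic growth factor, was at 719.5 ± 68.7 CPM (SD, n = 3) in Panc02.3 and 694.3 CPM in Renca, whose ranges overlapped, and at 32.92 CPM in B16.1. The level of Kdm3a, a histone demethylase, was the most even, at 140.3 CPM in B16.1 and 70.98 CPM in Renca.

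Some members were close to absent in single lines. Egln3 was at 724, 1060 and 915 CPM in unstimulated Panc02.3 and at 0.132, 0 and 0 CPM in CT26.2, where 1 count in 3 libraries is under the floor of 3 counts. Slc16a3, the exporter of lactate, averaged 304.7 CPM in MC38.7 and 158.9 CPM in KPC.2, but 1.043 CPM or less in YUMMER1.7, Renca and Panc02.3. Eno2, the neuronal form of enolase, averaged 388.5 CPM in Renca and 91.73 CPM in CT26.2, against 0.1593 CPM in MC38.7 and 0.2725 CPM in Panc02.3. Groups of 3 counts or fewer occurred for Slc2a3, Slc16a3, Eno2, Egln3, Car9 and Selenbp1, and fitted changes there depend on the prior count.

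**Figure D1:**
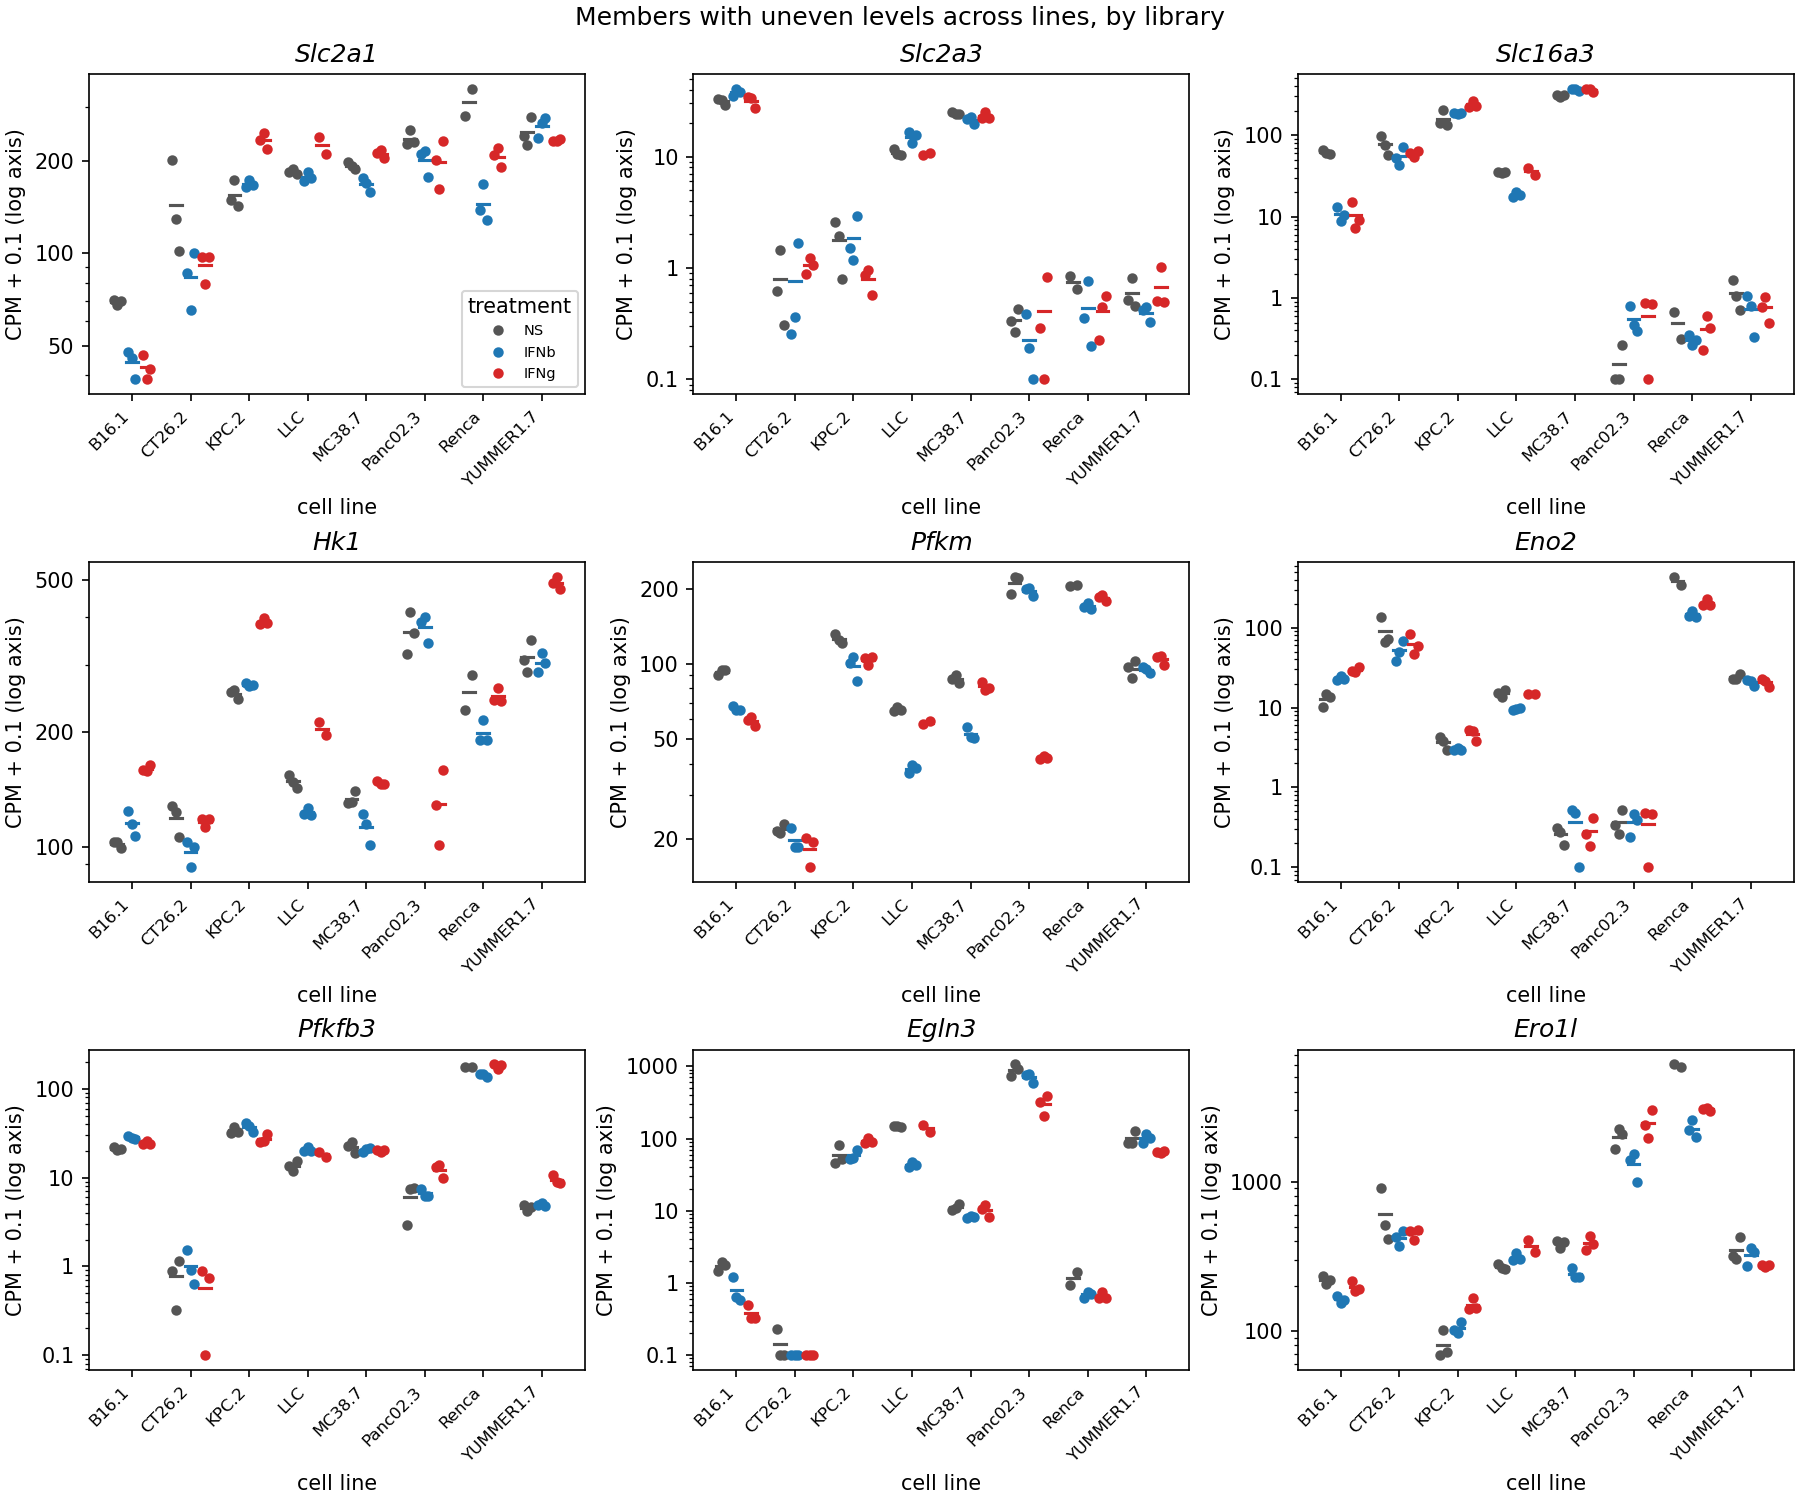
CPM plus 0.1 on a log axis for 9 members in each line, 1 point per library (NS grey, IFNb blue, IFNg red) with a bar at the mean of each group. Slc16a3 and Egln3 span more than 2 decades between lines, and Pfkm drops in Panc02.3 with IFNg from 190 to 223 CPM down to 41.7 to 42.8 CPM.

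With IFNb most of these genes fell. On the mean of the 8 lines 26 of 35 members fell and 0 rose, against 17.3% of all genes that fell and 13% that rose. Without Ankrd37 and Selenbp1, which earlier results of these data had shown to fall, 24 of 33 fell and 0 rose. No member passed as a rise in edgeR, 1 did at an unadjusted p under 0.05, and 1 did in DESeq2. The median change of the members was -0.31, beside -0.02 for all genes tested. By role, 10 of 10 HIF targets outside glycolysis fell, as did 12 of 15 glycolytic enzymes, 1 of 3 transporters, 1 of 3 kinases, 1 of the 3 genes for HIF and its hydroxylases, and Selenbp1. The 10 HIF targets include Ankrd37. The fall differed between lines for 33 of 35 members, against 48.2% of all genes. The 2 that did not pass that test were Gpi1 (adjusted p = 0.13) and Pfkfb4 (adjusted p = 0.6).

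**Figure D2:**
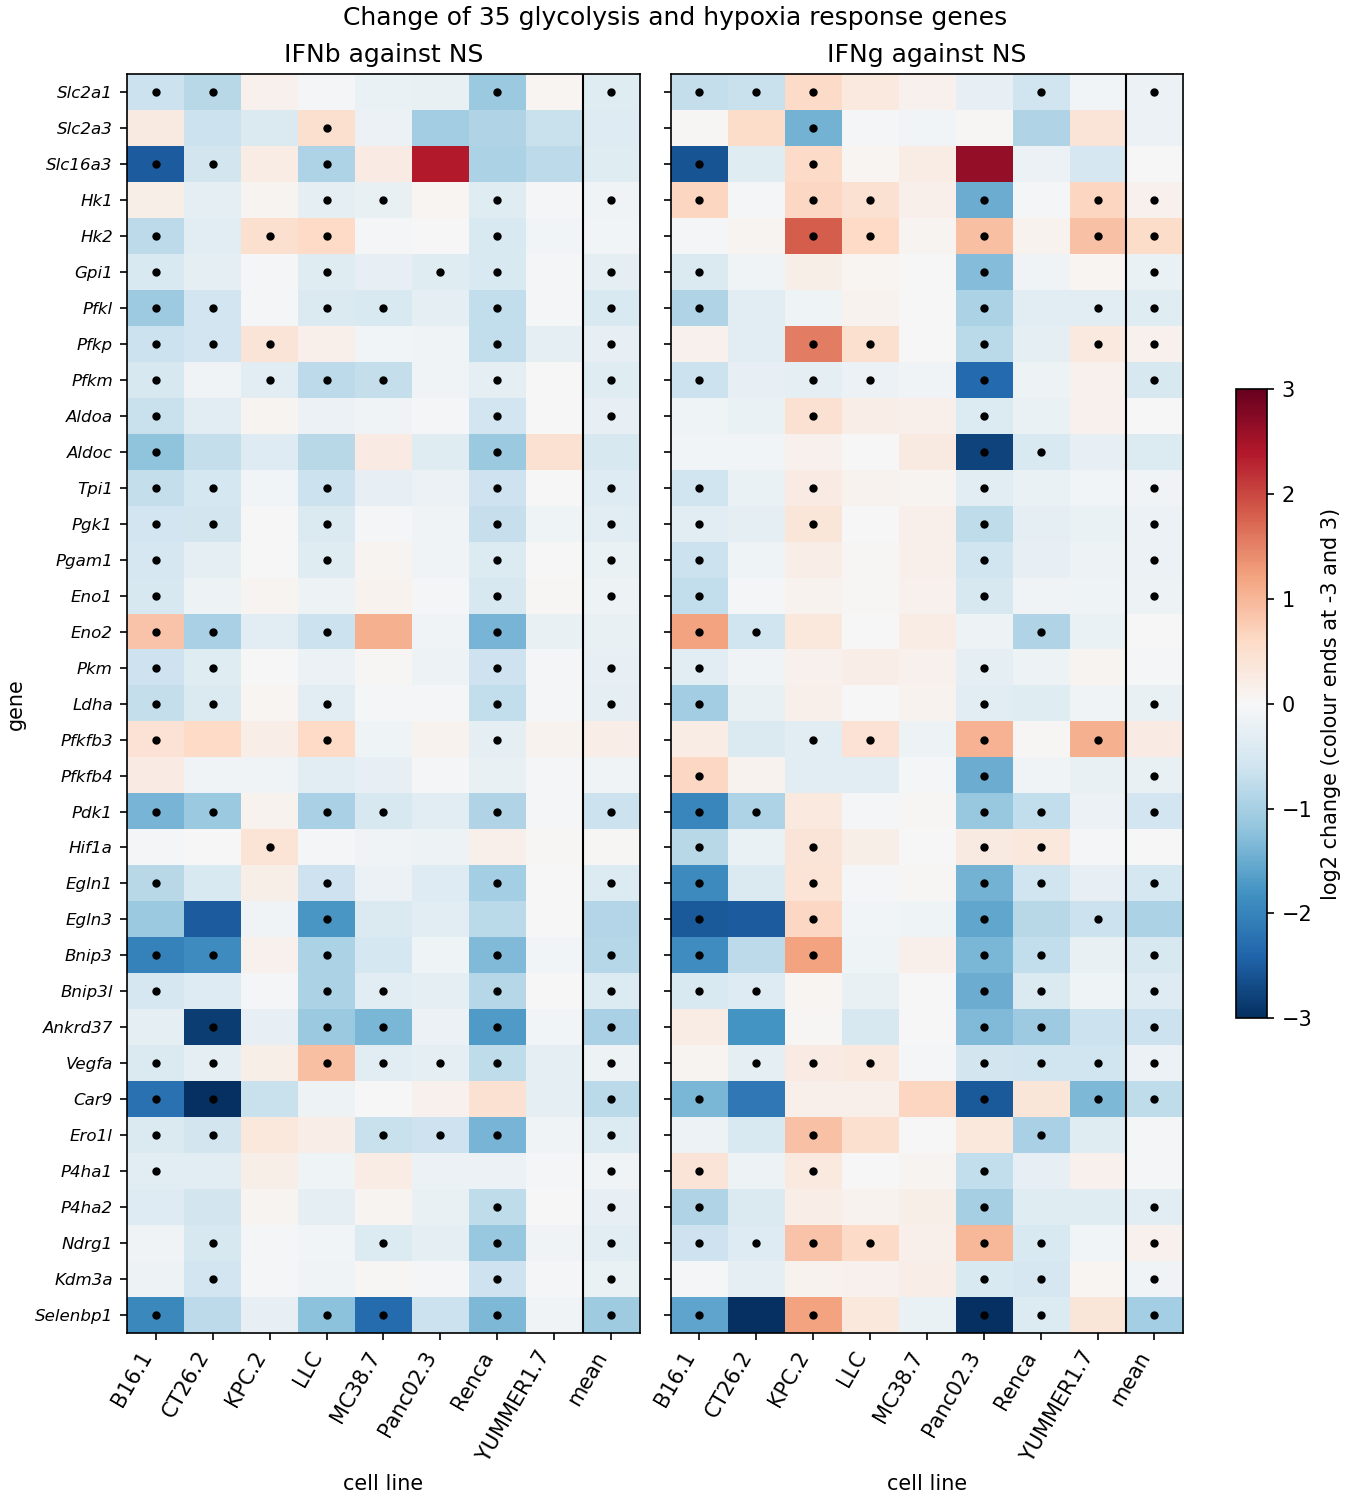
Log2 change against NS of each member (rows) in each line and on the mean of the 8 lines (columns), for IFNb and IFNg, with a dot where the adjusted p is under 0.05. With IFNb blue fills B16.1, CT26.2, LLC and Renca, with IFNg it fills B16.1 and Panc02.3 while KPC.2 is red. The deep red of Slc16a3 in Panc02.3 rests on groups near 0 counts and did not pass.

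By line, Renca had the most calls. There 28 members fell and 0 rose, the same counts as at an unadjusted p under 0.05 and in DESeq2, with a median of -0.73, against 6.82% of all genes that fell and 7.1% that rose. In B16.1 24 fell and 2 rose, with a median of -0.51 (14.3% of genes fell and 14.6% rose). In LLC 17 fell and 4 rose, with a median of -0.33 (21% and 17.6% of genes). MC38.7 had 10 that fell (16.8% of genes) and 0 that rose (13.8%), where 2 rose at an unadjusted p under 0.05 and 1 in DESeq2, and the median was -0.17. In KPC.2 3 rose and 1 fell (2.52% and 1.93% of genes), with a median of 0.02. Leaving out 1 library changed several of these counts. MC38.7 had 6 calls without IFNb replicate 2, and it had 21 with the line fitted alone and 16 without the filter on low counts. KPC.2 had 2 calls without IFNb replicate 1 and 2 without NS replicate 1.

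CT26.2 stood apart. There 17 members fell and 0 rose, as in DESeq2 (20 fell, 0 rose), against 0.929% of all genes that fell and 1.97% that rose, and the median was -0.52, or -0.46 with groups of 3 counts or fewer set to 3 counts. Without Ankrd37 and Selenbp1, 16 of 33 members fell, with a median of -0.47. NS replicate 1 lay above the mean of its group at 33 of 35 members, with a median deviation of 0.31. With the line fitted alone 1 member was called. Without that NS library 3 members fell, without IFNb replicate 1 10 did, and without IFNb replicate 2 8 did. Single libraries of other lines were shifted at most members too. KPC.2 NS replicate 2 lay above its group mean at 33 members. Panc02.3 NS replicate 1 and YUMMER1.7 NS replicate 2 each lay below theirs at 34. In Panc02.3 3 fell (2.82% of genes) and 0 rose (3.33% of genes). At an unadjusted p under 0.05 12 fell and 0 rose, and in DESeq2 5 fell and 0 rose. With the line fitted alone 0 were called, and without the filter on low counts 12. The count of 3 became 0 without NS replicate 2 or IFNb replicate 3, 1 without NS replicate 3, 6 without IFNb replicate 2 and 10 without NS replicate 1. No member passed in YUMMER1.7 in edgeR or DESeq2 fitted to all groups, where 0.972% of genes fell and 0.384% rose, and 2 fell at an unadjusted p under 0.05. In edgeR 2 were called there with the line fitted alone and 1 without the filter.

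**Figure D3:**
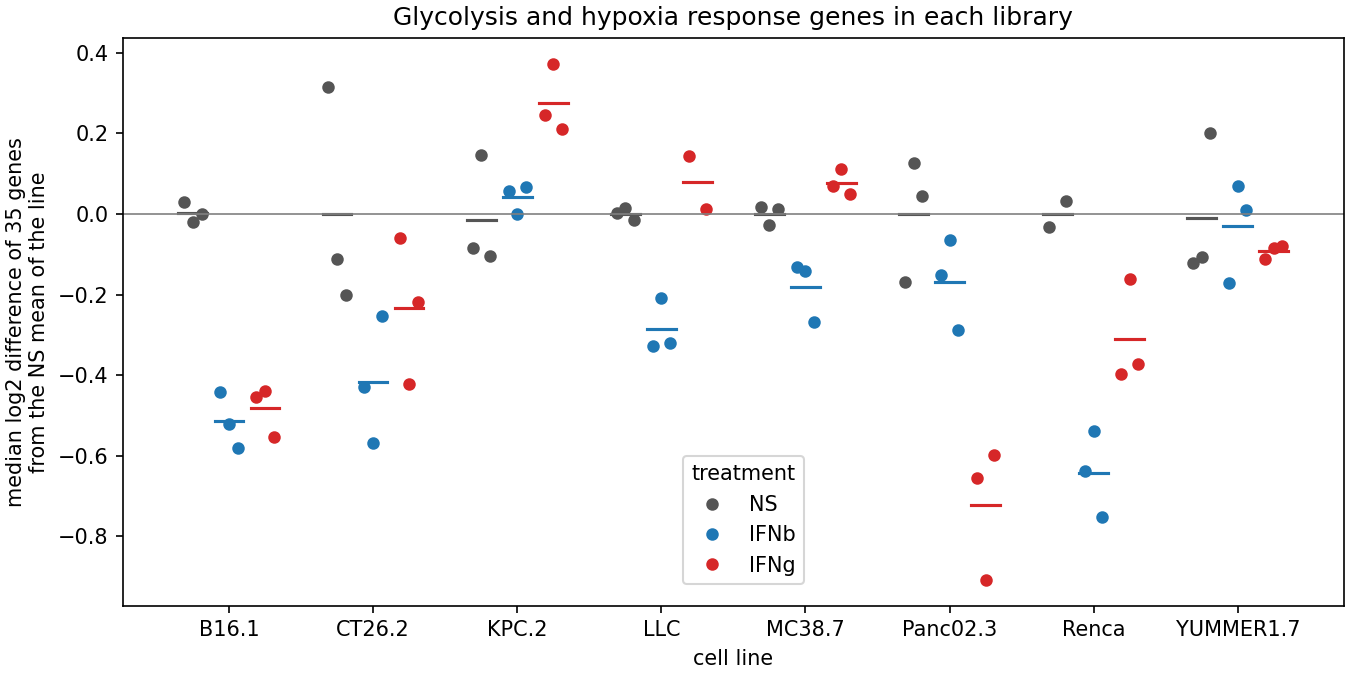
For each library, the median over the 35 members of the log2 difference from the NS mean of its line, with a bar at the mean of each group. IFNb libraries lie between -0.75 and -0.54 in Renca and between -0.58 and -0.44 in B16.1. IFNg libraries lie between -0.91 and -0.60 in Panc02.3 and between 0.21 and 0.37 in KPC.2, and NS replicate 1 of CT26.2 lies at 0.31.

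Among the HIF targets, Bnip3 fell in 4 lines. It stood at 129, 112 and 120 CPM in unstimulated B16.1 and at 31.6, 25.2 and 32.1 CPM with IFNb. In Renca it went from 926 and 897 CPM to 355, 427 and 306 CPM. In LLC the NS libraries held 116, 120 and 114 CPM and the IFNb libraries 57, 67.4 and 58 CPM. In each of these 3 lines the groups did not overlap, and the changes were -2.02 ± 0.30 in B16.1 (SE, adjusted p = 1.8e-07), -1.33 ± 0.25 in Renca (6.3e-05) and -0.95 ± 0.25 in LLC (0.0018). CT26.2 gave 222, 85 and 58 CPM without and 27, 24.1 and 67.8 CPM with IFNb, where the groups overlapped although the test passed (-1.89 ± 0.34, adjusted p = 9.6e-05). KPC.2 held 74.4, 102 and 76.9 CPM without and 104, 82.8 and 88.5 CPM with IFNb, and YUMMER1.7 92.1, 105 and 164 against 87.5, 133 and 122 CPM. In these and in MC38.7 and Panc02.3 the test did not pass, and on the mean of the 8 lines Bnip3 fell by 0.85 ± 0.10 (adjusted p = 2.5e-10). Part of Bnip3 shares exon bases with a gene on the other strand, and the sources used here do not give whether counting used strand.

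Ankrd37 is a less abundant HIF target that earlier results of these data had already shown to fall. In Renca it went from 22.7 and 17.7 CPM to 7.1, 7.02 and 4.14 CPM with IFNb, and in MC38.7 from 5.59, 3.89 and 6.4 CPM to 2.66, 1.41 and 1.88 CPM. Both pairs of groups were separate, with changes of -1.70 ± 0.29 (adjusted p = 9.7e-06) and -1.38 ± 0.39 (0.0046). LLC moved from 6.37, 5.15 and 5.96 CPM to 2.86, 3.17 and 2.28 CPM. CT26.2, at 8.68, 2.02 and 2.11 CPM without and 0, 1.34 and 1.58 CPM with IFNb, passed as well (-2.85 ± 0.78, 0.025). In Panc02.3, the line with the most Ankrd37 RNA, levels were 57.3, 81.5 and 69.1 CPM without and 69.8, 68.1 and 45.2 CPM with IFNb, and the groups overlapped. Its mean change over the 8 lines was -0.97 ± 0.18 (1e-05). Ankrd37 shares 349 exon bases with Lrp2bp on the other strand.

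Car9, the cell surface carbonic anhydrase that regulates pH, was above 10 CPM in every unstimulated library of B16.1 and YUMMER1.7 and below 5 CPM in the other 6 lines. With IFNb it went from 26.4, 17.1 and 27.3 CPM to 4.56, 4.64 and 5.86 CPM in B16.1 (-2.24 ± 0.32, adjusted p = 8.2e-08), with no overlap. YUMMER1.7 held 12.6, 14.6 and 30.5 CPM without and 10.3, 19.4 and 18 CPM with IFNb, and did not pass. The largest fitted fall of all, -3.76 in CT26.2 (adjusted p = 0.016), was between 4.08, 0.45 and 1.9 CPM and 0.314, 0 and 0 CPM. The IFNb libraries held 2 counts in all there, so the fitted value depends on the prior count. It did not pass without NS replicate 1 (adjusted p = 0.32) or IFNb replicate 2 (0.08). The mean change of Car9 over the 8 lines was -0.81 ± 0.21 (0.0013). That mean includes the CT26.2 value. The change was below 0 in 5 of the 8 lines and passed as a fall in 2.

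The other HIF targets moved by less or in fewer lines. Ero1l fell in 5 lines, and in Renca from 6090 and 5890 CPM to 2230, 2590 and 1980 CPM (-1.40 ± 0.17, adjusted p = 3.5e-09). Ndrg1 in Renca went from 3800 and 4210 CPM to 1740, 2080 and 1650 CPM (-1.14 ± 0.12, adjusted p = 4.3e-11). Neither gene's groups overlapped there. Bnip3l, a second gene of mitochondrial removal, fell in 4 lines and in LLC from 160, 161 and 157 CPM to 75.3, 91 and 83.4 CPM. Kdm3a fell in CT26.2 and Renca, while P4ha1 fell in B16.1 and P4ha2 in Renca, both of them collagen prolyl hydroxylase subunits.

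Vegfa moved in opposite directions. It fell in 5 lines, in Renca from 734 and 655 CPM to 383, 441 and 403 CPM (-0.76 ± 0.09, adjusted p = 4.5e-10). In LLC it rose from 75.5, 76 and 84.2 CPM to 136, 150 and 152 CPM (0.89 ± 0.08, adjusted p = 1.3e-13). Both pairs of groups were separate, and the difference between lines passed its test (adjusted p = 4.7e-16).

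The oxygen-sensing genes followed in 3 or fewer lines. Egln1 fell in Renca from 375 and 401 CPM to 181, 224 and 168 CPM (-1.02 ± 0.14, adjusted p = 1.8e-07), in B16.1 and in LLC. Egln3 fell in LLC only among the 8 lines tested, from 147, 148 and 143 CPM to 40.2, 47 and 42.9 CPM (-1.76 ± 0.15, adjusted p = 2.3e-14), with a wide gap between the groups. In Panc02.3, where it was most abundant, it held 724, 1060 and 915 CPM without and 747, 791 and 592 CPM with IFNb, and did not pass. Its mean over the 8 lines, -0.88 ± 0.73, did not pass (adjusted p = 0.44) and includes CT26.2 with 1 count in all. Hif1a RNA rose in KPC.2, from 101, 117 and 115 CPM to 155, 138 and 157 CPM (0.42 ± 0.10, adjusted p = 0.0068). In the other 7 lines Hif1a did not pass, and its mean change was 0.04 ± 0.03 (adjusted p = 0.49).

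The glycolytic enzymes had a list median of -0.24 on the mean over lines, beside -0.37 for the HIF targets. In Renca 15 of 15 enzymes fell and in B16.1 13 of 15. Ldha, which converts pyruvate to lactate, went from 1670, 1590 and 1630 CPM to 1000, 995 and 975 CPM in B16.1 (-0.72 ± 0.12, adjusted p = 1.4e-06). Pgk1, which makes ATP in the lower pathway, went from 1360 and 1370 CPM to 853, 940 and 763 CPM in Renca. Pfkm, the muscle form of phosphofructokinase, fell in 5 lines, in LLC from 65, 67.1 and 65.5 CPM to 36.5, 39.3 and 38.2 CPM (-0.80 ± 0.06, adjusted p = 1.3e-17). In all 3 cases the groups were separate. Aldoc, a minor aldolase, fell in B16.1 and Renca, and in B16.1 from 45.6, 47.2 and 51.5 CPM to 21.1, 21.7 and 19.7 CPM.

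A few enzymes rose in single lines. Hk2, the inducible hexokinase, rose in LLC from 179, 172 and 174 CPM to 273, 270 and 257 CPM (0.61 ± 0.08, adjusted p = 6.6e-09) and in KPC.2 from 107, 127 and 119 CPM to 177, 151 and 160 CPM (0.47 ± 0.10, 0.00058). In B16.1 it fell from 159, 161 and 170 CPM to 98.9, 93.7 and 89.1 CPM (-0.79 ± 0.09, 1e-10). All 3 pairs of groups were separate, and Hk2 also fell in Renca. Eno2 rose in B16.1, from 10.2, 14.5 and 13.5 CPM to 22, 24.6 and 23 CPM (0.86 ± 0.20, 0.0007), and fell in Renca from 436 and 341 CPM to 141, 164 and 136 CPM (-1.40 ± 0.13, 1.7e-12). Pfkp, the platelet form of phosphofructokinase, rose in KPC.2 and fell in B16.1, CT26.2 and Renca.

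Of the transporters, Slc2a1, the main glucose importer, fell in B16.1, CT26.2 and Renca. Renca moved from 281 and 344 CPM to 138, 168 and 128 CPM (-1.11 ± 0.13, adjusted p = 9.6e-10). Slc16a3 showed its largest fall in B16.1, from 65.6, 60.5 and 58.4 CPM to 13.1, 8.61 and 10.3 CPM (-2.50 ± 0.18, adjusted p = 4.2e-18), with no overlap, and fell in LLC from 34.8, 34.6 and 34.8 CPM to 17.1, 19.8 and 18.1 CPM. In MC38.7, which had the most Slc16a3 RNA, levels were 308, 294 and 311 CPM without and 368, 371 and 347 CPM with IFNb (adjusted p = 0.077). Slc2a3, another glucose importer, rose in LLC from 11.6, 10.5 and 10.2 CPM to 16.4, 13.2 and 15.5 CPM.

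Pdk1, the kinase that switches off pyruvate dehydrogenase and so keeps pyruvate out of mitochondria, fell in 5 lines. B16.1 went from 75.6, 67.5 and 63.5 CPM to 24.1, 28.1 and 27 CPM (-1.39 ± 0.20, adjusted p = 2e-07) and LLC from 169, 169 and 156 CPM to 77.5, 86.4 and 85.6 CPM (-0.98 ± 0.16, 8e-07). Renca had 129 CPM in both unstimulated libraries and 66.1, 77.9 and 62.1 CPM with IFNb. The groups were separate in each, and the mean change over the 8 lines was -0.64 ± 0.06 (3.4e-12). CT26.2 moved from 104, 49.9 and 39.4 CPM to 26.4, 28.9 and 47.3 CPM, with overlap. Pfkfb3, which makes the activator of phosphofructokinase, rose in B16.1 and LLC and fell in Renca, where it was at 175 and 178 CPM without and 145, 148 and 137 CPM with IFNb. Pfkfb4, a related kinase, passed in no line.

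Selenbp1, a selenium-binding protein that oxidises methanethiol, is listed here for its earlier appearance among genes that fell in these data. It fell with IFNb in 4 lines. Renca went from 280 and 314 CPM to 114, 148 and 87.7 CPM (-1.34 ± 0.13, adjusted p = 7e-12) and B16.1 from 40.5, 36.7 and 39.3 CPM to 11.6, 11.4 and 7 CPM (-1.92 ± 0.19, 5.4e-12). In LLC it moved from 14.4, 14.9 and 14 CPM to 6.3, 6.11 and 5.95 CPM and in MC38.7 from 3.16, 1.64 and 3.52 CPM to 0.666, 0.385 and 0.703 CPM (-2.31 ± 0.51, 0.00025). These 4 pairs of groups did not overlap. The mean over 8 lines was -1.08 ± 0.28 (adjusted p = 0.0017), but 0.23 as adjusted p without NS replicate 1 of CT26.2, a line with 3 or fewer counts in 2 groups.

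**Figure D4:**
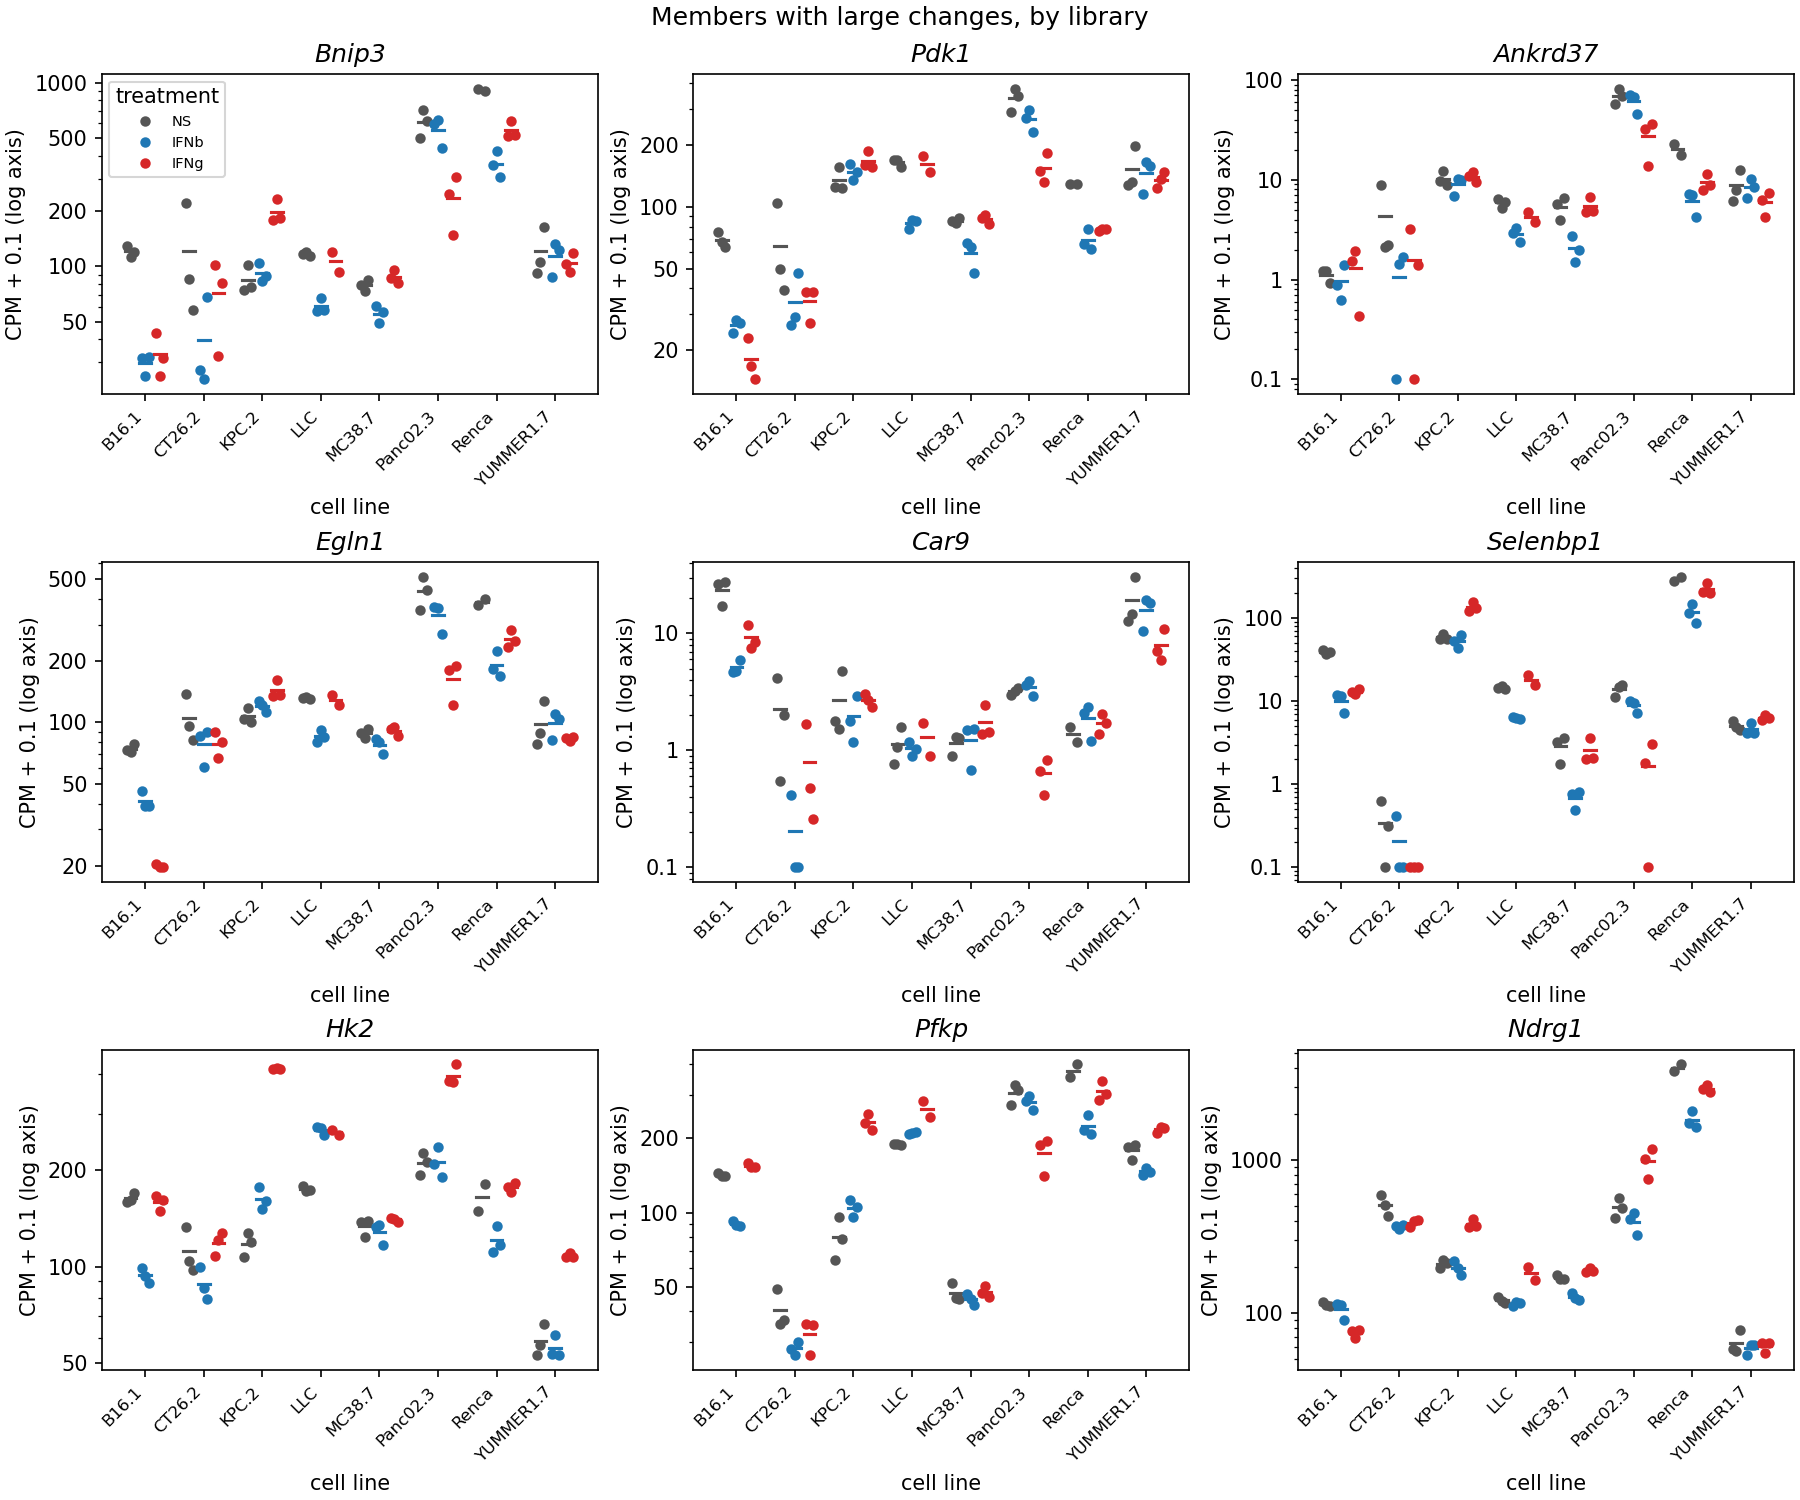
CPM plus 0.1 on a log axis for 9 of the members with the largest called falls or rises on the mean over lines. Each point is 1 library (NS grey, IFNb blue, IFNg red), with a bar at the mean of each group. The mean rises of Pfkp and Ndrg1 with IFNg were small, at 0.13 each. Bnip3, Pdk1 and Egln1 drop with IFNb in B16.1, LLC and Renca and with IFNg in B16.1, Panc02.3 and Renca, while Bnip3, Hk2, Pfkp and Ndrg1 stand higher with IFNg in KPC.2.

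IFNg gave a less uniform picture. On the mean of the 8 lines 20 members fell and 4 rose, where 23.7% of all genes fell and 18.3% rose, and the median was -0.18 beside -0.04 for all genes. Without Ankrd37 and Selenbp1 18 of 33 fell and 4 rose. The share of members that rose is below that of all genes. By role, 7 of 10 HIF targets fell and 1 rose, 8 of 15 enzymes fell and 3 rose, 2 of 3 kinases fell, and Slc2a1, Egln1 and Selenbp1 fell. The 4 that rose were Hk2 (0.55 ± 0.03, adjusted p = 1.3e-22), Ndrg1 (0.13 ± 0.04, 0.008), Pfkp (0.13 ± 0.04, 0.0029) and Hk1 (0.12 ± 0.03, 0.00098). The response differed between lines for 34 of 35 members, against 69.2% of all genes. Slc2a3 was the exception (adjusted p = 0.075). The largest falls on the mean were those of Selenbp1 (-1.01 ± 0.37, adjusted p = 0.024), Car9 (-0.76 ± 0.19, 0.00074), Ankrd37 (-0.64 ± 0.16, 0.00055), Pdk1 (-0.58 ± 0.06, 3.3e-11) and Egln1 (-0.52 ± 0.05, 2.3e-12). The fall of Selenbp1 did not pass without CT26.2 NS replicate 1 (0.3) or CT26.2 IFNg replicate 3 (0.067). Its mean includes -4.60 in CT26.2, a line with 3 or fewer counts in 2 groups, where it did not pass. Changes were below 0 in 5 of the 8 lines for Selenbp1, 4 for Car9, 5 for Ankrd37 and 6 each for Pdk1 and Egln1. The comparisons with IFNb and with IFNg share their NS libraries, so the cytokines are set against each other directly further on.

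Panc02.3 and KPC.2, both pancreatic lines, differed in direction. In Panc02.3 26 members fell and 4 rose, with a median of -0.73, where 31.6% of all genes fell and 23.2% rose. In KPC.2 17 rose and 3 fell, with a median of 0.25 (13.8% of genes rose and 15.8% fell). In B16.1 21 fell and 4 rose, with a median of -0.47 (26.5% and 27.6% of genes). Renca had 13 that fell (5.16% of genes) and 1 that rose (6.04%), with a median of -0.33. Without NS replicate 2 or NS replicate 3, which leaves 1 unstimulated Renca library, the called members were 8 and 9. KPC.2 had 13 calls without NS replicate 1, 11 of them rises. Over the 33 members other than Ankrd37 and Selenbp1, 24 fell in Panc02.3, with a median of -0.61. Of these 33, 20 fell in B16.1 and 11 in Renca, and 16 rose in KPC.2.

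The other 4 lines had fewer calls with IFNg, with medians of 0.05 in LLC, 0.07 in MC38.7 and -0.12 in YUMMER1.7. In CT26.2 6 members fell (3.86% of genes) and 0 rose (4.97% of genes), with a median of -0.29, or -0.28 at the floor of 3 counts. At an unadjusted p under 0.05 19 fell and 0 rose, and in DESeq2 8 fell and 0 rose. With the line fitted alone 0 were called, and without the filter on low counts 16. The count of 6 was 0 without NS replicate 1, 2 without IFNg replicate 2 and 14 without NS replicate 3. In LLC 6 rose (6.65% of genes) and 1 fell (4.6%), but 3 were called without IFNg replicate 1 and 4 without NS replicate 2. There were 15 calls with the line fitted alone, 11 without the filter on low counts and 4 when replicate number entered as a block. YUMMER1.7 had 4 that rose (9.79% of genes) and 4 that fell (11%), and 14 calls without the filter. In MC38.7 no member passed in edgeR or DESeq2 fitted to all groups, where 3.89% of genes rose and 0.886% fell, and 2 rose at an unadjusted p under 0.05. In edgeR 9 were called there with the line fitted alone and 1 without the filter on low counts.

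In KPC.2 the genes that rose came from every role except the flux-setting kinases. Hk2 went from 107, 127 and 119 CPM to 414, 416 and 415 CPM (1.82 ± 0.09, adjusted p = 9.1e-26), and Pfkp from 64.5, 96.1 and 77.9 CPM to 231, 251 and 215 CPM (1.54 ± 0.10, 9.1e-20). Bnip3 went from 74.4, 102 and 76.9 CPM to 178, 232 and 183 CPM (1.22 ± 0.26, 2e-04), and Selenbp1 from 55.3, 64.4 and 56.3 CPM to 120, 154 and 133 CPM (1.20 ± 0.14, 2.3e-10). All 4 had separate groups. Ero1l rose from 68.7, 101 and 72 CPM to 141, 167 and 142 CPM, Ndrg1 from 196, 224 and 212 CPM to 365, 410 and 372 CPM, and Slc2a1 from 149, 174 and 143 CPM to 234, 247 and 219 CPM. Hif1a itself rose from 101, 117 and 115 CPM to 147, 144 and 141 CPM (0.38 ± 0.09, adjusted p = 0.0012), together with Egln1 and Egln3. Slc2a3, Pfkm and Pfkfb3 fell. The fall of Slc2a3, the largest at -1.41 (adjusted p = 0.0073), was between levels of 0.477 to 2.5 CPM and did not pass without NS replicate 1 (adjusted p = 0.14) or IFNg replicate 3 (0.058).

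In Panc02.3 enzymes, HIF targets, Egln3, Pdk1 and Selenbp1 were among the falls, and none of the 3 transporters passed. Selenbp1 went from 11.2, 14.7 and 15.4 CPM to 1.71, 0 and 2.94 CPM (-3.18 ± 0.44, adjusted p = 6.4e-09) and Aldoc from 59.6, 99.7 and 82.9 CPM to 11.9, 7.18 and 16.5 CPM (-2.77 ± 0.18, 2.1e-20). Pfkm fell from 190, 223 and 220 CPM to 41.7, 42.8 and 41.9 CPM (-2.33 ± 0.07, 1.1e-36). These groups lay far apart. Egln3 went from 724, 1060 and 915 CPM to 317, 205 and 393 CPM, Bnip3 from 499, 710 and 622 CPM to 249, 148 and 308 CPM, and Gpi1, the enzyme that turns glucose 6-phosphate into fructose 6-phosphate, from 3050, 4770 and 4050 CPM to 1800, 1240 and 1780 CPM. Again no groups overlapped. Car9 went from 2.85, 3.14 and 3.32 CPM to 0.569, 0.312 and 0.735 CPM (-2.51 ± 0.71, 0.0018) and Pdk1 from 289, 376 and 347 CPM to 150, 132 and 183 CPM. In the same libraries Hk2 rose from 193, 226 and 212 CPM to 381, 376 and 428 CPM (0.91 ± 0.08, 2.8e-14), Ndrg1 from 418, 566 and 487 CPM to 1020, 757 and 1180 CPM (1.01 ± 0.11, 1.2e-11), and Hif1a by 0.26 ± 0.09 (0.0084). Pfkfb3 rose the most, by 1.04 ± 0.20 (6.7e-06), from 2.85, 7.27 and 7.63 CPM to 12.9, 13.7 and 9.92 CPM. Ero1l did not pass, at 1650, 2250 and 2080 CPM without and 2410, 1960 and 3040 CPM with IFNg.

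B16.1 lost most of its Slc16a3 RNA, from 65.6, 60.5 and 58.4 CPM to 15, 7.17 and 8.98 CPM with IFNg (-2.59 ± 0.17, adjusted p = 8.5e-20). Pdk1 went from 75.6, 67.5 and 63.5 CPM to 22.9, 16.6 and 14.3 CPM (-1.95 ± 0.21, 8.5e-12) and Egln1 from 73.2, 71.7 and 77.9 CPM to 20.2, 19.6 and 19.5 CPM (-1.91 ± 0.18, 5e-14). None of these groups overlapped. Hif1a RNA fell there too, from 162, 169 and 163 CPM to 107, 92.5 and 78.9 CPM (-0.83 ± 0.09, 1.2e-11), and Bnip3 went to 43.2, 25.2 and 31.4 CPM. Car9 moved to 11.8, 7.4 and 8.42 CPM from 26.4, 17.1 and 27.3 CPM, and Ldha from 1670, 1590 and 1630 CPM to 815, 754 and 819 CPM. Eno2 rose from 10.2, 14.5 and 13.5 CPM to 28.6, 27.9 and 32.3 CPM (1.21 ± 0.19, 2.3e-07), the largest rise in the line, and Hk1, Pfkfb4 and P4ha1 rose by less.

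In Renca 7 of 10 HIF targets and 2 of 15 enzymes fell with IFNg. Ankrd37 showed the largest fall, from 22.7 and 17.7 CPM to 7.81, 11.3 and 8.8 CPM (-1.08 ± 0.27, adjusted p = 0.0038), which did not pass without NS replicate 2 (0.17). Ero1l went from 6090 and 5890 CPM to 3080, 3100 and 2980 CPM and Vegfa from 734 and 655 CPM to 478, 432 and 461 CPM. Bnip3 went from 926 and 897 CPM to 512, 617 and 521 CPM (-0.73 ± 0.25, adjusted p = 0.048). All 4 pairs were separate, while Hif1a rose there by 0.32 ± 0.09 (0.013). In YUMMER1.7 Pfkfb3 rose from 4.76, 4.07 and 4.59 CPM to 10.5, 8.9 and 8.53 CPM (1.06 ± 0.19, 8.9e-06), Hk2 from 52.8, 56.7 and 66.1 CPM to 107, 110 and 107 CPM, and Hk1 and Pfkp rose as well. Car9 fell there from 12.6, 14.6 and 30.5 CPM to 7.02, 5.8 and 10.9 CPM (-1.34 ± 0.31, 0.00061), though not without NS replicate 3 (0.067), and Egln3, Vegfa and Pfkl fell. In CT26.2 the members that fell were Slc2a1, Eno2, Pdk1, Bnip3l, Vegfa and Ndrg1.

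Set against each other directly, IFNg left 12 members higher and 1 lower than IFNb on the mean of the 8 lines, where 18% of all genes were higher and 18.7% lower. The median difference was 0.08 beside -0.01 for all genes. Hk2 (0.63 ± 0.03, adjusted p = 1.5e-24), Ndrg1 (0.47 ± 0.04, 6.8e-14), Bnip3 (0.38 ± 0.10, 0.0019), Ero1l (0.37 ± 0.06, 4.4e-07) and Pfkp (0.37 ± 0.04, 6.2e-12) led, and Pfkm was lower (-0.12 ± 0.02, 4e-05). Pdk1, Egln1 and Ankrd37 did not pass (adjusted p = 0.59, 0.12 and 0.2).

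The direction of that difference again went by line. With IFNg, 21 members were higher and 2 lower in LLC (16.8% and 12.5% of genes), 18 higher and 0 lower in Renca (5.25% and 4.19%), 13 higher and 0 lower in MC38.7 (17.8% and 10.5%) and 13 higher and 1 lower in KPC.2 (10.9% and 9.18%). For Renca and MC38.7 0 were lower at an unadjusted p under 0.05 and in DESeq2 too. In Panc02.3 24 were lower and 5 higher (30.4% and 22.6%), and in B16.1 9 were higher and 8 lower (26% and 24.5%). YUMMER1.7 had 4 higher and 3 lower (9.09% and 7.73%), while CT26.2 had 1 higher, Hk2, and 0 lower (2.51% and 1.5%). In CT26.2 6 were higher at an unadjusted p under 0.05 and 3 in DESeq2, with 0 lower in each. In LLC Egln3 showed the widest gap, at 40.2, 47 and 42.9 CPM with IFNb and 152 and 123 CPM with IFNg (1.67, adjusted p = 2.3e-12). Calls were 15 in LLC without IFNg replicate 1, 8 in MC38.7 without IFNb replicate 2 and 11 in Renca without IFNg replicate 2. For CT26.2 they were 0 with the line fitted alone, 6 without the filter on low counts, 2 with RLE size factors, 0 without IFNb replicate 2 or IFNg replicate 3, 4 without IFNg replicate 2 and 5 without IFNb replicate 3.

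Counting over lines, 5 members fell with IFNb in 5 lines, Pfkl, Pfkm, Pdk1, Vegfa and Ero1l, where 0.353% of all genes fell in at least 5 lines and 1.68% in at least 4. No member fell with IFNg in more than 4 lines, where 1.33% of all genes did and 4.11% fell in at least 4. With IFNb 5 members rose in at least 1 line and fell in at least 1 other, as did 11.6% of all genes, and with IFNg 19 members and 27.8% of all genes did. Hk2 rose with IFNg in 4 lines (KPC.2, LLC, Panc02.3 and YUMMER1.7) and fell in none of the 8. Hk1, the constitutive hexokinase, rose in B16.1, KPC.2, LLC and YUMMER1.7 and fell in Panc02.3, from 320, 412 and 363 CPM to 129, 101 and 159 CPM (-1.50 ± 0.09, adjusted p = 1.1e-21). Ndrg1 rose in 3 lines and fell in 3. Bnip3l, Pdk1, Pfkm and Vegfa fell with IFNg in 4 lines each, and Vegfa also rose in KPC.2 and LLC.

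Because some enzymes have several genes, their shares were compared per kilobase of transcript, as a description without a test. In KPC.2 Hk1 made up 73.5% ± 1.73 (SD, n = 3) of the hexokinase pair with Hk2 without cytokine and 54.7% ± 0.422 with IFNg. In Panc02.3 it made up 69% ± 0.996 and 29.5% ± 3.39. The ranges did not overlap, so Hk2 went from the minor to the major of the pair in Panc02.3. In B16.1 the move was the other way, from 44.6% ± 1.42 to 56.6% ± 1.19 for Hk1. Of the 3 phosphofructokinase genes, Pfkp held 14.2% ± 1.94 in unstimulated KPC.2 and 35.4% ± 1.77 with IFNg. In Panc02.3 the share of Pfkm went from 24.6% ± 0.299 to 11.1% ± 1.95.

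Other genes of the same pathways were taken from lists of 24 glycolysis and pyruvate genes and 35 HIF pathway genes, of which 55 of 59 were tested. On the mean over lines 6 rose and 19 fell with IFNb, with a median of -0.13, where 13% of all genes rose and 17.3% fell. With IFNg 5 rose and 18 fell, with a median of -0.08, where 18.3% of all genes rose and 23.7% fell. Among the rises with IFNb were Arnt2, a partner of bHLH-PAS factors, at 0.66 ± 0.26 (adjusted p = 0.043), and Tigar, a phosphatase that opposes Pfkfb3, at 0.19 ± 0.04 (1.9e-05). Arnt2 did not pass in DESeq2 (adjusted p = 0.055), without the filter on low counts (0.13), or in 24 of the 47 fits that left out 1 library of its groups (up to 0.097). The falls were led by Pdk2 (-0.51 ± 0.09, 1.5e-05), a pyruvate dehydrogenase kinase like Pdk1, Fam162a (-0.46 ± 0.07, 4.9e-08) and Zfp395 (-0.42 ± 0.11, 0.0027). With IFNg the rises were led by Hmox1, the haem-degrading enzyme, at 0.43 ± 0.05 (2.8e-11), Tigar at 0.33 ± 0.03 (2.4e-12) and Slc16a1, a lactate and pyruvate carrier, at 0.14 ± 0.03 (2.1e-05). The falls were led by Zfp395 (-0.74 ± 0.12, 4.8e-07), Pdk2 (-0.66 ± 0.10, 3.9e-08) and Bpgm (-0.52 ± 0.05, 2.6e-13), which makes 2,3-bisphosphoglycerate. Slc16a1 fell in B16.1 with IFNg by 0.99 ± 0.08 (3e-16) and rose in Panc02.3 by 1.19 ± 0.08 (1.4e-19), where Pdk2 fell by 3.79 ± 0.31 (1.5e-16).

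Members also moved together between replicate libraries of the same group. Over 70 libraries, the deviations of log2(CPM + 1) from the group mean gave a median Pearson r of 0.46 over the 595 pairs of members, 0.63 among the glycolytic enzymes, 0.56 among the HIF targets and 0.60 between these 2 lists. The points share library and depth, and no p is given. No such r is given for other genes, so whether 0.46 is unusual for genes of like level was not tested. Aldoa and Pkm were the closest pair, at 0.96. Egln1, Gpi1 and Slc2a1 had the highest median r with the other members (0.75, 0.74 and 0.73), while Hif1a (-0.03) and Pfkfb4 (-0.06) had the lowest. The median replicate SD was 0.17 log2 units for members and 0.15 for all genes tested, and 19 of 35 members exceeded 90% of the 500 genes nearest to them in level. Bnip3 (0.40) and Pdk1 (0.25) were each above 99.8% of such genes.

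**Figure D5:**
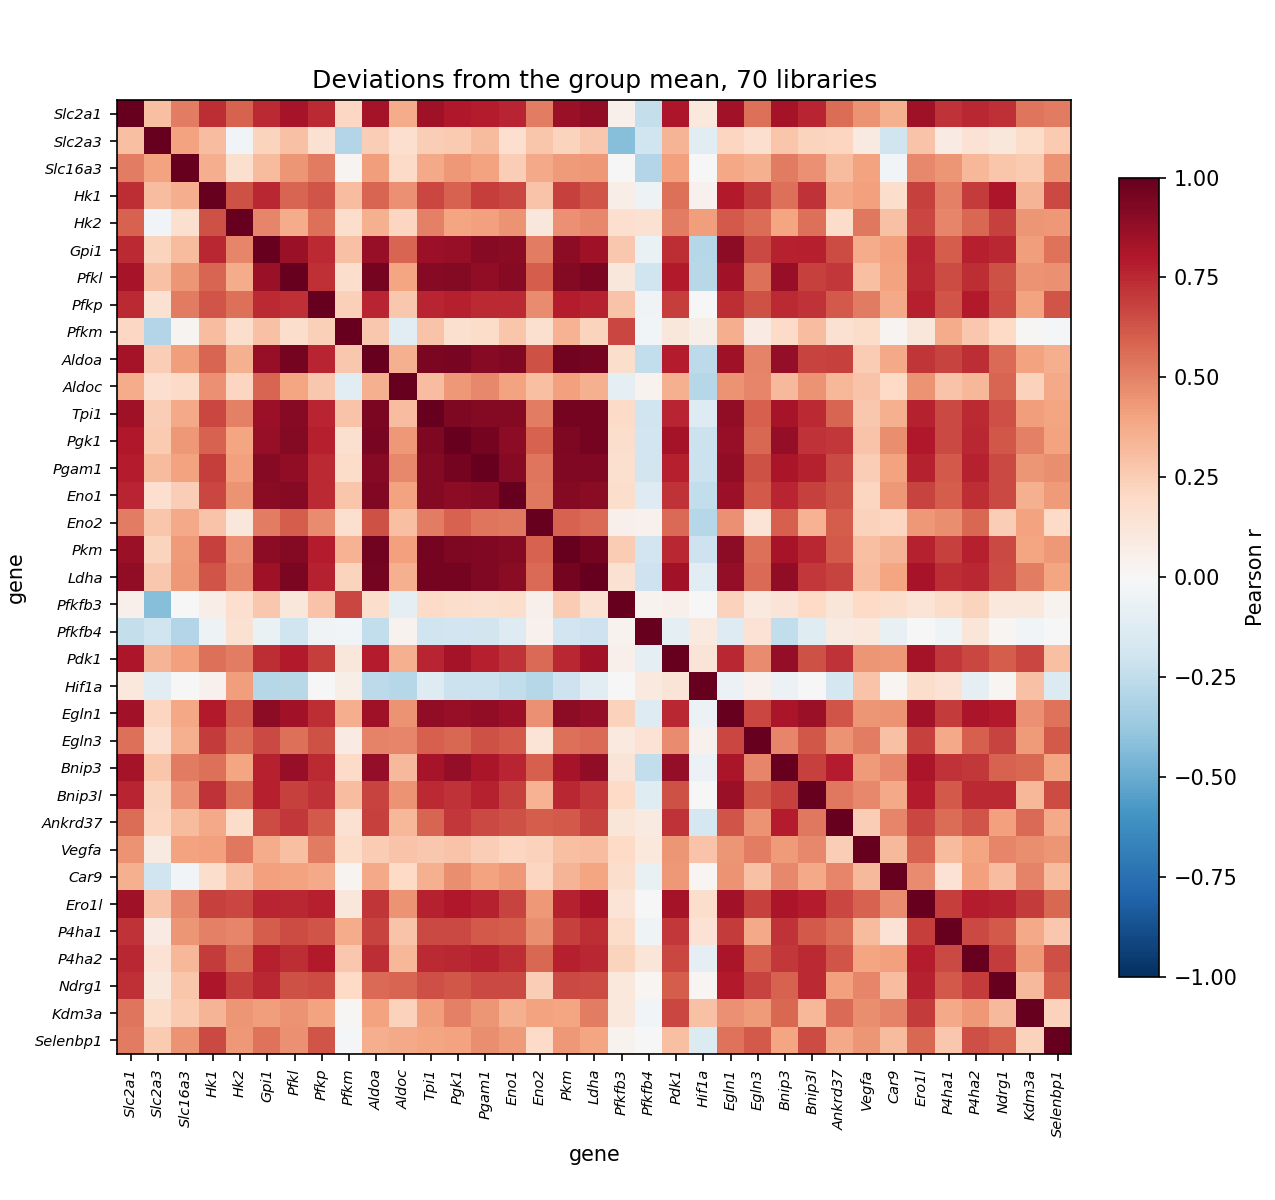
Pearson r between each pair of the 35 members, computed over 70 libraries from deviations of log2(CPM + 1) from the group mean. Aldoa, Tpi1, Pgk1, Pgam1, Eno1, Pkm and Ldha form a red block, and Egln1, Bnip3 and Ero1l are red with it, whereas Hif1a, Pfkfb4 and Pfkfb3 are pale, and their median r with the other members is -0.03 for Hif1a and -0.06 for Pfkfb4.

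Copies of some genes limit single values. Eno1b, a near-identical copy of Eno1, took 46.4 to 48.7% of the summed Eno1 and Eno1b counts in the groups of CT26.2 and 43.3 to 45.5% in those of Renca, both BALB/c lines. In the 6 C57BL/6 lines it took at most 0.056%. Unstimulated Eno1 was 643.7 CPM in CT26.2 and 894.9 CPM in Renca, and with Eno1b added 1228 and 1601 CPM, so the order of the lines for Eno1 depends on the copy. Adding the counts of such copies to Eno1, Pgam1, Pgk1 and Selenbp1 and 4 other members left every count of called members above within 1.5 times its value. Pkm, Pfkm and Hif1a share 767, 341 and 148 exon bases with another gene on the same strand. The effect of that sharing was not tested.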

How the data were processed

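Estimated counts, 1 value per gene and library, are what the authors deposited. Per the labels' protocols, culture was in serum-containing DMEM, RNeasy kits purified the RNA and libraries were made with the NEB Ultra II Directional kit. Per the submitters' processing notes, Trimmomatic 0.36, kallisto and the mouse build mm10 (GRCm38) were used. How transcripts were summed to genes, and whether strand was used, is not given in the sources used here.

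The estimated counts were rounded to whole numbers. Genes were kept by edgeR's filterByExpr over the 24 groups (16147 of 35197 genes), scaled by TMM and fitted with 1 mean per group in edgeR 4.0.16 (R 4.3.3) by the quasi-likelihood method, with a prior of 9.22 degrees of freedom. All groups shared 1 estimate of the spread. Contrasts were each cytokine against NS and IFNg against IFNb, in each line and as the mean of the 8 lines, plus F tests of the difference between lines, with Benjamini-Hochberg adjustment over all genes tested. A floor of 3 counts over a group was used. The script was tested on simulated counts with known changes. Alternatives were RLE size factors, no filter, DESeq2 1.42.0, each line alone, the replicate number as a block, each of the 70 libraries left out in turn with the tested genes and the dispersion trend held, and, chosen after seeing the data, copies of a gene added to it. No 2 libraries held identical values. Co-variation used log2(CPM + 1).

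The 35 genes, the lists, tests and alternatives were chosen with earlier results of these data known. Named in full are the 5 called members with the largest rise and fall on the mean over lines for each cytokine, the largest called rise and fall of at least 2-fold in each line, and the 3 largest called changes each way among the other pathway genes (1 of which is not reported here), with every library of these members in the plots and those of the lines that passed in the text. Promoters were matched by symbol, and Egln1 and Car9, with 70 and 60 bases of their windows in annotated exons, were not printed, while the printed windows held at most 17 such bases.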

Additional observations from a re-analysis of the deposited data

Results flagged for a closer look

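The response to IFNb differed between the 8 lines for 33 of the 35 members by edgeR's F test over line-by-treatment terms. The response to IFNg did so for 34. Among all genes tested 48.2% passed with IFNb and 69.2% with IFNg. Listed here are members that rose in at least 1 line and fell in at least 1 other, with the adjusted p of that difference between lines. Passing in both directions in the same fit already implies a difference between lines, so these p-values add no separate support.

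With IFNb there were 5 such members, and 11.6% of all genes also went both ways. Vegfa (adjusted p = 4.7e-16) and Hk2 (3.2e-14) had the smallest values, followed by Pfkp (2.3e-09), Eno2 (3.3e-09) and Pfkfb3 (1.4e-05).

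With IFNg there were 19, and 27.8% of all genes went both ways. Among transporters and enzymes they were Slc2a1 (1.5e-09), Slc16a3 (2e-17), Hk1 (6.5e-23), Pfkp (4.4e-20), Aldoa (8.8e-05), Tpi1 (4.5e-06), Pgk1 (5.8e-05) and Eno2 (2.9e-09). The kinases Pfkfb3 (3.5e-08) and Pfkfb4 (4e-06) belonged to this group as well. Hif1a (1.3e-11) and the hydroxylase genes Egln1 (6.8e-14) and Egln3 (9e-11) all 3 went both ways. Of the HIF targets, Bnip3 (5.4e-09), Vegfa (6.5e-12), Ero1l (2e-08), P4ha1 (4.6e-09) and Ndrg1 (3.2e-15) did so, and Selenbp1 (7.5e-16) did too.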

How the results depend on the processing

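Counts of called members within 1.5 times their value under every alternative run were those on the mean over lines for IFNb that fell and for IFNg in both directions, those of B16.1 in all 3 comparisons, of LLC and Renca with IFNb, of Panc02.3 with IFNg and between cytokines and of KPC.2 between cytokines, those higher with IFNg than IFNb on the mean, and the 3 tests of differences between lines. With 1 library left out, counts for IFNb ran from 3 to 22 in CT26.2, 2 to 5 in KPC.2, 6 to 9 in MC38.7 and 0 to 10 in Panc02.3, and the rises on the mean from 0 to 1, with 1 without Panc02.3 NS replicate 3. For IFNg they ran from 0 to 14 in CT26.2, 13 to 19 in KPC.2, 3 to 6 in LLC and 8 to 18 in Renca. Between cytokines they ran from 0 to 5 in CT26.2, 15 to 22 in LLC, 8 to 11 in MC38.7 and 11 to 21 in Renca. Fitted alone, a line gave for IFNb 1 call in CT26.2, 21 in MC38.7, 0 in Panc02.3 and 2 in YUMMER1.7, for IFNg 0 in CT26.2, 15 in LLC and 9 in MC38.7, and between cytokines 0 in CT26.2. Without the filter there were for IFNb 16 calls in MC38.7, 12 in Panc02.3 and 1 in YUMMER1.7, for IFNg 16 in CT26.2, 11 in LLC, 1 in MC38.7 and 14 in YUMMER1.7, and between cytokines 6 in CT26.2, 12 in YUMMER1.7 and 2 lower on the mean. DESeq2 gave 5 calls for IFNb in Panc02.3, 1 rise on the mean, and 3 between cytokines in CT26.2, where RLE gave 2. The cause was not tested. Of 40 single-gene results under 1502 alternative values, 36 lost their call and 0 reversed, and 26 of the 36 were those of Arnt2. Replicate numbers did not pair the libraries: over 68 pairs of the same number and line the deviations correlated between -0.27 and 0.16. With the number as a replicate block, LLC had 4 calls with IFNg, and the other counts stayed within 1.5 times. The lowest total, 668355 counts, was in KPC.2 with IFNb.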
